A study of Mus musculus with 3 samples.

Results

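Oxidative phosphorylation genes were taken from single-cell RNA data of mouse follicular T cells by their symbols. The rule took symbols starting with Ndufa, Ndufb, Ndufc, Ndufs, Ndufv, Uqcr, Atp5, Cox4 to Cox8 or mt-, with Sdha, Sdhb, Sdhc and Sdhd, and left out symbols holding -ps. It found 106 of the 32285 genes in the files, 93 of them encoded in the nucleus and 13 in the mitochondrial genome. The nuclear genes are 38 of complex I, 8 Ndufaf genes of complex I assembly, 4 of complex II, 8 of complex III, 18 of complex IV and 17 of complex V. The rule uses names only.

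The respiratory chain sits in the inner mitochondrial membrane. Complexes I and II pass electrons from NADH and succinate to ubiquinone, complex III passes them to cytochrome c, and complex IV passes them to oxygen. Complexes I, III and IV pump protons, and complex V, the ATP synthase, uses the gradient to make ATP. Most subunits are encoded in the nucleus and imported, while a few core subunits of every complex but II are made inside the organelle from mitochondrial DNA. Activated T cells use this pathway beside glycolysis, and its nuclear genes tend to be expressed together.

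Cells came from spleens of mice with a Siglec-G B-cell knockout (BKO, 1 library, batch 1) and of wild-type mice (WT, 2 samples, batches 1 and 2). Siglec-G restrains signalling in B cells, and the knockout is labelled as one of the B cells, not of the sorted T cells. The strain, age and number of mice and the Cre driver are not given in the sources used here. All mice had been immunised with ovalbumin in liposomes 14 days earlier, and follicular regulatory (Tfr) and follicular helper (Tfh) T cells were sorted together for 10x 3′ sequencing. The authors' tables gave each cell its class and subcluster, with 2044 Tfr and 6389 Tfh cells in BKO. The WT samples had 1416 and 1449 Tfr cells and 3727 and 3668 Tfh cells.

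Both WT samples hold the same cells. Each of the 5554 barcodes in WT replicate 1 was found again among 5721 in WT replicate 2, with UMI totals correlated at r = 0.997 (a UMI, unique molecular identifier, counts 1 captured RNA molecule). They were therefore treated as 1 library in 2 sequencing runs, called WT run 1 and WT run 2, and 527 of the 5068 cells annotated in both runs were in different classes. BKO shared 13 barcodes with WT run 2. With 1 library per genotype there is no test and no p-value, no difference has a replicate check, and intervals are exact 95% intervals for counting error only. Matrices held 85225125 UMIs in BKO, against 32518538 and 54059000 in WT runs 1 and 2. These totals are not alike, since the BKO matrix was unfiltered, with 1275404 barcodes. Cells in the authors' tables held 15275355 UMIs in BKO Tfr cells, against 8309616 and 13543176 in WT. In Tfh cells they held 43702235 UMIs in BKO, against 18734327 and 29914602. The median UMIs per cell in BKO lay between those of the WT runs, at 7054 against 5146 and 8407 in Tfr cells and 6243 against 4413 and 7294 in Tfh cells. Per the file headers WT was counted with Cell Ranger 7.0.1 and BKO with Cell Ranger 4, which treat intron reads differently by default, and this difference cannot be told apart from genotype.

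The 5 T cell markers (Cd3d, Cd3e, Cd3g, Trac, Cd4) summed to 5262 CPM (UMIs scaled to an equal total per class) in BKO Tfr cells, against 4150 and 4090 CPM in WT, and to 4987 CPM in BKO Tfh cells, against 4264 and 4245 CPM. The 4 Tfr markers (Foxp3, Il2ra, Ctla4, Ikzf2) summed to 4069 CPM in BKO Tfr cells, against 3980 and 4023 CPM in WT, and to 1561 CPM in BKO Tfh cells, against 1759 and 1779 CPM. Most of that was Ikzf2, with 3032 CPM in BKO Tfr cells, against 3173 and 3234 CPM. In Tfr cells Ctla4 had 615 CPM in BKO, against 357 and 355 CPM. Il2ra had 72.4 CPM, against 94.5 and 103 CPM, and Foxp3 349 CPM, against 356 and 331 CPM. In Tfh cells Foxp3 had 1.33 CPM in BKO, against 0.801 CPM in WT run 1 and 16.5 CPM in WT run 2. The 5 Tfh markers (Cxcr5, Pdcd1, Bcl6, Icos, Il21) summed to 1016 CPM in BKO Tfr cells, against 819 and 827 CPM, and to 1081 CPM in BKO Tfh cells, against 908 and 921 CPM. The Tfr list thus set the classes apart, while the Tfh list was only slightly higher in Tfh cells of each library. B cell markers summed to at most 8.64 CPM in any library and class. Sums of 4 myeloid markers were 139 CPM in BKO Tfr cells, against 99.3 and 93.6 CPM in WT, and 104 CPM in BKO Tfh cells, against 88.7 and 81.3 CPM. Nearly all of that was Cst3, with 138 CPM in BKO Tfr cells, against 97.4 and 91.6 CPM, and 103 CPM in BKO Tfh cells, against 85.7 and 79.0 CPM. The other myeloid markers, Lyz2, Itgam and Csf1r, each had at most 2.19 CPM in any library and class. Erythroid markers summed to 3.47 CPM in BKO Tfr cells, against 0.842 and 0.886 CPM, and to 6.09 CPM in BKO Tfh cells, against 1.12 and 1.30 CPM. What part these play in the values below was not tested.

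Nuclear respiratory genes are known for sites of the factors NRF1 and GABP near their start. The letters GCGCATGCG, the core of the NRF1 motif, were searched on both strands of RefSeq promoter sequences on GRCm38.p6, between 250 bases before and 50 after the start. Of the 93 nuclear members 76 were matched to a sequence. The letters stood in 10 of the 76 (13.2%), against 2.61% of 17492 coding genes, 4.96% of the genes measured here at 20 CPM or more and 1.75% of all windows of that length. The sequences, 5′ to 3′ on the gene's strand with the match in capitals, are those of the 7 measured members whose match and its surroundings lie wholly inside the searched window, shown because they spread over 4 of the complexes.
Atp5g2 (chr15:102671056-102671114, minus strand): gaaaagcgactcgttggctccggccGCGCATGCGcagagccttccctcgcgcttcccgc
Atp5k (chr5:108434416-108434474, minus strand): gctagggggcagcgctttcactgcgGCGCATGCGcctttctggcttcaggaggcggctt
Cox6a1 (chr5:115349087-115349145, minus strand): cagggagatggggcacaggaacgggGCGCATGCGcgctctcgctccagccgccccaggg
Uqcr11 (chr10:80406793-80406851, minus strand): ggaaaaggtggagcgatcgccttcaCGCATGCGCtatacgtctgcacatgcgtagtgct
Ndufa8 (chr2:36049314-36049372, minus strand): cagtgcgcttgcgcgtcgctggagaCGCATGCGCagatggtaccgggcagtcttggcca
Ndufa11 (chr17:56717677-56717735, plus strand): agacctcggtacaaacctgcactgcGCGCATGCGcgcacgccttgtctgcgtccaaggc
Ndufaf4 (chr4:24897945-24898003, plus strand): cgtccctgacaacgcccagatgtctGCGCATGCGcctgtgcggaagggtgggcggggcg

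These members encode a ring subunit (Atp5g2) and a small membrane subunit (Atp5k) of complex V, a subunit of complex IV (Cox6a1), one of complex III (Uqcr11), accessory subunits of complex I (Ndufa8, Ndufa11) and a complex I assembly factor (Ndufaf4). In Uqcr11 and Ndufa8 the match is on the opposite strand. The GABP letters CCGGAAG stood in 25% of the matched members, the same share as in genes at 20 CPM or more and more than in coding genes (12.9%). The YY1 letters AAGATGGCG stood in 10.5% of members, against 4.55% and 2.14%, and the TATA box letters TATAAA in 10.5%, against 8.26% and 14.8%. A match is a description of letters, not a site. Between genotypes, the 9 measured members with the NRF1 letters had a median log2 ratio of 0.23 in Tfr and 0.19 in Tfh cells, and the 61 matched members without them 0.26 and 0.23.

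The nuclear genes held a larger share of UMIs in BKO than in both WT runs, by a small amount. In Tfr cells they summed to 2.09% of UMIs in BKO, against 1.74% and 1.71% in WT runs 1 and 2. In Tfh cells they summed to 1.98% in BKO, against 1.71% and 1.66%. The log2 ratio of BKO over the mean of the WT runs was 0.27 in Tfr (interval 0.26 to 0.29) and 0.23 in Tfh cells (0.22 to 0.24). Within batch 1, which leaves WT run 1 as the comparison, it was 0.26 and 0.21. BKO lay outside the WT runs in both classes, and the WT runs lay close together. The size of the ratio depended on cell makeup and scaling. With subclusters given equal weight it was 0.17 in Tfr and 0.15 in Tfh cells, with the trend of the ratio over intron length taken off 0.15 and 0.12, and with TMM scaling, which assumes that most genes do not differ, 0.39 and 0.39. Tfh subcluster 2, which had the highest nuclear share of the larger Tfh subclusters, held 2180 of 6389 Tfh cells in BKO, against 257 of 3727 and 269 of 3668 in WT.

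The mitochondrial genes did not show the same difference. In Tfr cells they summed to 3.58% of UMIs in BKO, against 3.63% and 3.66% in WT, a log2 ratio of -0.03 that became 0.09 with TMM scaling, which shifts all ratios of Tfr cells by 0.12. In Tfh cells they summed to 4.16% in BKO, against 3.85% and 3.88%, a log2 ratio of 0.10 that was 0.26 with TMM scaling, 0.17 with a total without mitochondrial, ribosomal and member genes, and 0.03 with subclusters given equal weight. Within batch 1 these were -0.02 and 0.11. Mitochondrial UMIs per nuclear-member UMI were therefore lower in BKO, at 1.72 against 2.08 and 2.15 in Tfr and 2.10 against 2.26 and 2.33 in Tfh cells. Since the shares sum to the whole of a class, the values are relative, and RNA per cell was not measured.

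A fixed rule of size called a gene where the 3 samples averaged 20 CPM or more and BKO differed from each WT run by 1.5 times or more in 1 direction. Of the 106 members, 82 nuclear and all 13 mitochondrial genes reached 20 CPM in each class, and they were the same genes in both. By this rule 0 members were called in either class. Over all genes measured, 58 of 6539 (0.887%) were called higher and 157 (2.40%) lower in Tfr cells, and 26 of 6559 (0.396%) higher and 161 (2.45%) lower in Tfh cells. With no size required, BKO lay above both WT runs for 77 of the 82 nuclear members in Tfr cells, where 33.3% of all genes did, and for 75 of 82 in Tfh cells, where 31.9% did. Their median log2 ratio was 0.25 in Tfr (range -0.07 to 0.59) and 0.22 in Tfh cells (-0.09 to 0.49), beside -0.09 and -0.10 over all genes. The difference was thus small per gene and present in nearly every nuclear member measured. Looser rules called a few members. At 25% beyond both runs 14 members were higher in Tfr and 4 in Tfh cells, where 4.74% and 2.21% of all genes were. Against WT run 1 alone, at 1.5 times, 4 were higher in each class, where 1.46% and 0.859% of all genes were. With no minimum of CPM, Cox7a1 was called higher in both classes and Cox7b2 in Tfh cells, where 11.1% of genes with a UMI were called higher in Tfr and 10.4% in Tfh cells. Cox7b2 had 1 UMI in BKO Tfh cells and 0 in both WT runs. Cox4i2 was called lower in both classes and Cox6a2 in Tfh cells, where 17.2% and 17.6% were. Each of these had 0 UMIs in BKO and at most 2 in a WT run. In Tfr cells Cox4i2 also had 0 UMIs in WT run 1, so there BKO was equal to that run and not lower. The shares called lower likewise count genes with 0 UMIs in both BKO and a WT run.

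**Figure D1:**
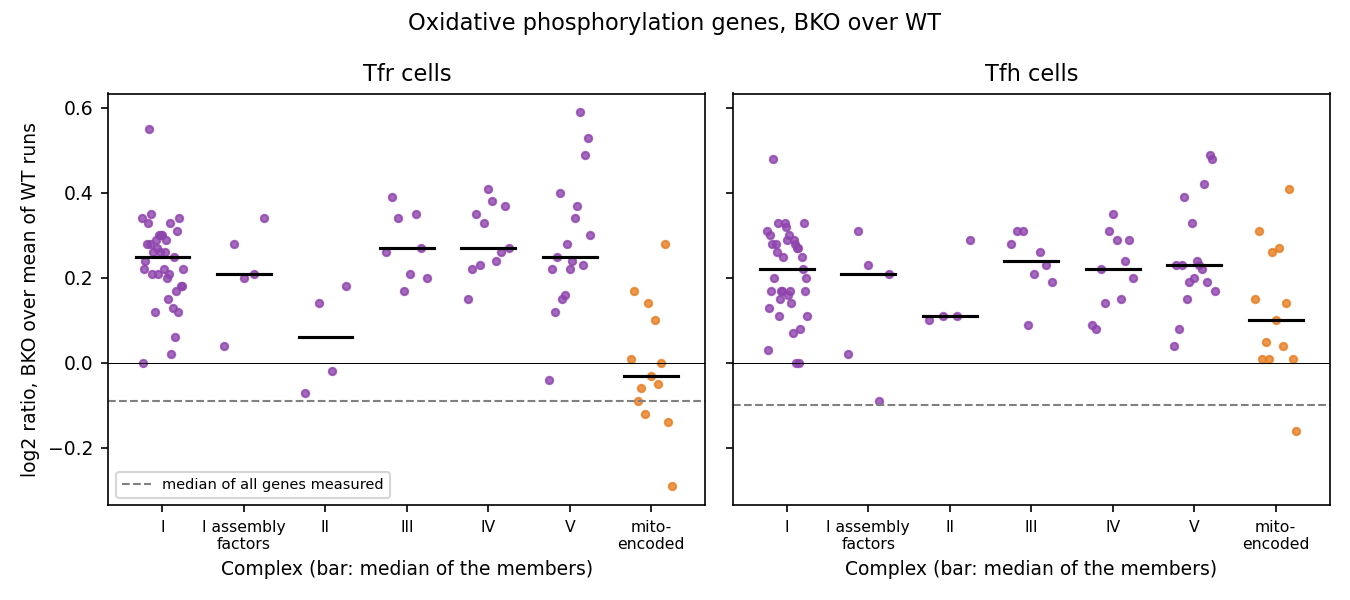
Log2 ratio of BKO over the mean of the WT runs (y axis) for each measured member, by complex (x axis), in Tfr and Tfh cells. Bars are medians and the dashed line is the median of all genes measured (-0.09 in Tfr, -0.10 in Tfh). Nearly all nuclear members lie above 0 in both classes. Of the 13 mitochondrial genes, 5 lie above 0 in Tfr cells and 12 in Tfh cells.

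Complex I takes electrons from NADH. Its nuclear members summed to 0.671% of UMIs in BKO Tfr cells, against 0.577% and 0.547% in WT, and to 0.638% in BKO Tfh cells, against 0.564% and 0.534%. BKO lay above both WT runs for 35 of the 37 measured members in Tfr and 33 of 37 in Tfh cells, with medians of 0.25 and 0.22. Ndufa4, named for complex I and also known as a complex IV subunit, had 469 CPM in BKO Tfr cells, against 399 and 372 CPM in WT. Ndufa13, a membrane-arm subunit that was first described as a cell death regulator, had 495 CPM in BKO Tfr cells, against 426 and 389 CPM. Ndufa2, an accessory subunit of the matrix arm, had 312 CPM in BKO Tfr cells, against 247 and 247 CPM. All of these 3 were above both runs in Tfh cells too, with log2 ratios of 0.20, 0.17 and 0.28.

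Within complex I the ratios ran between a near-zero group and 1 clearly higher gene. Ndufs1, the core subunit with most of the iron-sulphur clusters, had 40.9 CPM in BKO Tfr cells, against 39.0 and 41.5 CPM in WT, and 42.4 CPM in BKO Tfh cells, against 42.8 and 42.3 CPM. Ndufa10, an accessory subunit, had 72.3 CPM in BKO Tfh cells, against 72.5 and 69.6 CPM. For both genes BKO lay within the WT runs in each class. Ndufa3, a small membrane subunit, had 300 CPM in BKO Tfr cells, against 180 and 228 CPM in WT, and 288 CPM in BKO Tfh cells, against 183 and 230 CPM, with log2 ratios of 0.55 and 0.48. The WT runs differed for Ndufa3 by 0.34 and 0.32 (log2, run 2 over run 1), and by 0.31 and 0.32 in the cells that both runs put in the same class.

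Of the 8 Ndufaf assembly factors, which build complex I without being part of it, 5 were measured. The sum of all 8 was 280 CPM in BKO Tfr cells, against 252 and 246 CPM in WT, and 275 CPM in BKO Tfh cells, against 261 and 248 CPM. Ndufaf8 had 94.9 CPM in BKO Tfr cells, against 74.5 and 74.9 CPM, and 91.1 CPM in BKO Tfh cells, against 81.5 and 75.8 CPM. Ndufaf3 had log2 ratios of 0.28 and 0.31 in Tfr and Tfh cells. Ndufaf2 had 45.6 CPM in BKO Tfr cells, against 44.6 and 43.9 CPM. Ndufaf7 had 29.7 CPM in BKO Tfr cells, against 25.4 and 25.6 CPM, and 23.8 CPM in BKO Tfh cells, against 26.6 and 24.1 CPM, the only measured nuclear member below both WT runs in Tfh cells.

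Complex II, succinate dehydrogenase, belongs both to the chain and to the tricarboxylic acid cycle and has no mitochondrially encoded subunit. It had the smallest difference of the complexes in Tfr cells, with 325 CPM summed in BKO, against 315 and 310 CPM in WT. In Tfh cells the sums were 322 CPM in BKO, against 293 and 295 CPM. Sdha, the flavin-binding catalytic subunit, had 107 CPM in BKO Tfr cells, against 113 and 111 CPM, and 121 CPM in BKO Tfh cells, against 113 and 113 CPM. It was the only measured nuclear member below both WT runs in Tfr cells. Sdhb, the iron-sulphur subunit, had 128 CPM in BKO Tfr cells, against 119 and 113 CPM in WT. The membrane anchors Sdhc and Sdhd had log2 ratios of -0.02 and 0.18 in Tfr and 0.11 and 0.29 in Tfh cells.

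Complex III, which passes electrons to cytochrome c, lay above both WT runs in all 8 nuclear members in both classes. Its sum was 2126 CPM in BKO Tfr cells, against 1773 and 1742 CPM in WT, and 1946 CPM in BKO Tfh cells, against 1660 and 1632 CPM. Uqcrh, the hinge subunit that helps cytochrome c bind, had 710 CPM in BKO Tfr cells, against 596 and 586 CPM, and 647 CPM in BKO Tfh cells, against 558 and 546 CPM. The small subunits Uqcr10, Uqcrq and Uqcr11 had log2 ratios of 0.26, 0.20 and 0.39 in Tfr cells and 0.28, 0.19 and 0.31 in Tfh cells. Uqcrc1, a large core subunit, had the lowest ratio of the complex in both, 0.17 and 0.09.

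Complex IV, cytochrome c oxidase, summed to 4990 CPM in BKO Tfr cells, against 4081 and 4044 CPM in WT, and to 4640 CPM in BKO Tfh cells, against 3996 and 3947 CPM. BKO lay above both runs for 11 of 11 measured members in Tfr and 10 of 11 in Tfh cells. Cox6c, a small structural subunit, had 734 CPM in BKO Tfr cells, against 536 and 566 CPM, and 645 CPM in BKO Tfh cells, against 493 and 522 CPM. Cox8a, the ubiquitous form of the smallest subunit, had 760 CPM in BKO Tfr cells, against 649 and 614 CPM. Cox4i1, the regulatory subunit found in most tissues, had log2 ratios of 0.15 in Tfr and 0.09 in Tfh cells, and Cox5a, which binds Cox4i1, 0.22 and 0.08.

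Complex IV also shows which isoforms these T cells use. The common forms Cox4i1, Cox6a1, Cox6b1, Cox7a2, Cox7a2l and Cox8a were all measured. Their tissue-restricted counterparts were near the limit of detection: Cox6b2, of testis, had at most 1.51 CPM, Cox7a1, of heart and muscle, at most 2.43 CPM, and Cox4i2, a form of lung, at most 0.107 CPM. Cox8c had 0 UMIs in every library and class, and so had Ndufa4l2, a hypoxia-induced relative of Ndufa4. Cox6a2 and Cox8b, both of heart and muscle, had at most 0.0534 and 0.0334 CPM. UMIs of the 3′ assay count molecules and were not scaled by length.

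Complex V, the ATP synthase, summed to 6423 CPM in BKO Tfr cells, against 5239 and 5242 CPM in WT, and to 6236 CPM in BKO Tfh cells, against 5232 and 5187 CPM. BKO lay above both runs for 16 of 17 members in each class, and Atp5a1 was the exception in both. Atp5e, the epsilon subunit of the central stalk, had 875 CPM in BKO Tfr cells, against 639 and 689 CPM in WT, and 849 CPM in BKO Tfh cells, against 623 and 675 CPM. Atp5h, of the peripheral stalk, had 479 CPM in BKO Tfr cells, against 420 and 389 CPM. Atp5l, a membrane subunit, had log2 ratios of 0.23 in Tfr and 0.19 in Tfh cells. Atp5a1, the alpha subunit of the catalytic head, had 261 CPM in BKO Tfr cells, against 278 and 258 CPM, so BKO lay between the runs.

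The ring of complex V is encoded by Atp5g1, Atp5g2 and Atp5g3, which give the same mature protein. Atp5g1 had 268 CPM in BKO Tfr cells, against 260 and 221 CPM in WT. Atp5g2 had 456 CPM, against 371 and 377 CPM, and Atp5g3 285 CPM, against 245 and 246 CPM. The order of their ratios was the same in both classes, with Atp5g2 highest (0.28 in Tfr, 0.33 in Tfh), then Atp5g3 (0.22, 0.20) and Atp5g1 (0.16, 0.19). For Atp5g1 the WT runs differed by -0.23 in both classes (run 2 over run 1), more than the ratio itself.

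The highest ratios of the nuclear members were those of Ndufa3, Atp5k, Atp5md and Atp5mpl, and these genes also differed between the WT runs. Atp5k, Atp5md and Atp5mpl are small membrane subunits of the ATP synthase, the first and second tied to its pairing into dimers. Atp5k had 334 CPM in BKO Tfr cells, against 199 and 246 CPM in WT, and 310 CPM in BKO Tfh cells, against 212 and 252 CPM. Atp5md had 294 CPM in BKO Tfr cells, against 186 and 231 CPM. The median ratio of these 4 genes was 0.54 in Tfr and 0.48 in Tfh cells, beside 0.24 and 0.21 for the other 78. Against WT run 2 alone it was 0.39 and 0.35, and against run 1 alone 0.71 and 0.60. They were the only nuclear members at least 0.2 log2 units higher in WT run 2 than in run 1 (4.88%), a difference found in 2.25% of all genes in Tfr and 1.59% in Tfh cells. In the WT cells that both runs put in the same class, the same 4 genes were the nuclear members at least 0.2 higher in run 2, beside 1.93% of all genes in Tfr and 1.60% in Tfh cells.

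The intron content of genes moved with the ratio as well. Over genes that are not members, the median log2 ratio was 0.18 in Tfr cells where introns summed to under 1 kb, 0.17 at 1 to 3 kb, 0.11 at 3 to 10 kb, -0.04 at 10 to 30 kb and -0.27 over 30 kb. The nuclear members in those bins had medians of 0.34, 0.23, 0.27, 0.15 and 0.04 (7, 17, 41, 14 and 3 genes). In Tfh cells the other genes had 0.18, 0.16, 0.08, -0.05 and -0.26, and the members 0.22, 0.24, 0.23, 0.15 and 0.02. Most members have short introns, and with the trend over intron length taken off, their median ratio was 0.15 in Tfr and 0.13 in Tfh cells, above 0 for 75 and 73 of 82. Of all genes measured, 3265 of 6539 in Tfr and 3270 of 6559 in Tfh cells were then above 0. The mitochondrial genes, which have no introns, had -0.20 and -0.06 on that scale. The near-zero members include those with the longest introns, such as Ndufs4 with 97756 bases (0.06 in Tfr, 0.00 in Tfh) and Ndufaf2 with 152931 bases (0.04, 0.02).

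**Figure D2:**
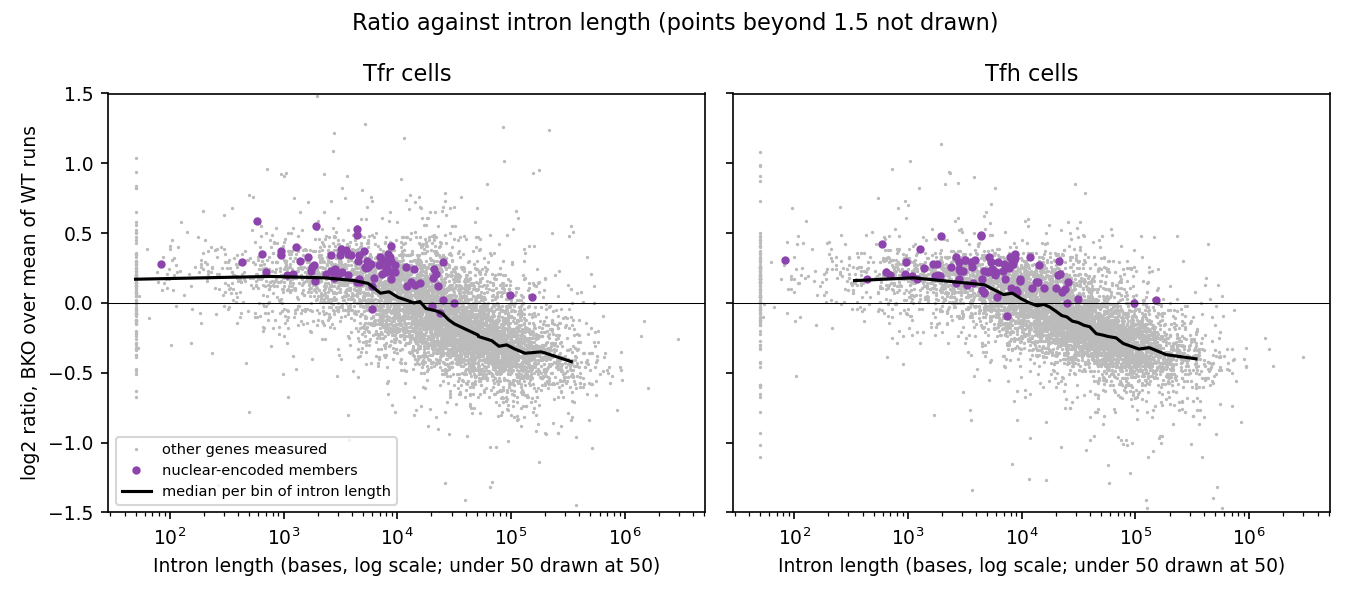
Log2 ratio of BKO over the mean of the WT runs (y axis) against summed intron length (x axis, log scale) in Tfr and Tfh cells, with nuclear members over all other genes measured and a line for the median per bin. The line falls with intron length, and most members lie above it (75 of 82 in Tfr, 73 of 82 in Tfh).

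All 13 protein genes of the mitochondrial genome were measured. BKO lay above both WT runs for 3 and below both for 4 in Tfr cells, and above for 8 and below for 1 in Tfh cells, on the scale of UMI totals. Of all genes, 33.3% lay above and 56.6% below both in Tfr cells, and 31.9% above and 58.9% below in Tfh cells. The complex I genes differed among themselves. mt-Nd2 had 2326 CPM in BKO Tfr cells, against 2141 and 2213 CPM in WT, and 3007 CPM in BKO Tfh cells, against 2446 and 2535 CPM. mt-Nd1 had 1563 CPM in BKO Tfr cells, against 1550 and 1645 CPM, and 1941 CPM in BKO Tfh cells, against 1758 and 1853 CPM. mt-Nd4 had 1855 CPM in BKO Tfr cells, against 1851 and 1862 CPM, and 2144 CPM in BKO Tfh cells, against 1932 and 1954 CPM. mt-Nd5 had 511 CPM in BKO Tfr cells, against 546 and 582 CPM, and 562 CPM in BKO Tfh cells, against 542 and 577 CPM. In Tfr cells, then, mt-Nd2 was above both runs, mt-Nd5 below both, and the others between them.

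The shorter complex I genes differed more between the WT runs. mt-Nd3 had 734 CPM in BKO Tfr cells, against 673 and 849 CPM in WT, and 868 CPM in BKO Tfh cells, against 752 and 934 CPM. mt-Nd4l had 258 CPM in BKO Tfr cells, against 196 and 229 CPM, and 309 CPM in BKO Tfh cells, against 214 and 249 CPM. mt-Nd6, the only protein gene on the other strand, had 60.8 CPM in BKO Tfr cells, against 68.1 and 81.1 CPM, and 67.0 CPM in BKO Tfh cells, against 68.9 and 80.7 CPM. It was below both runs in both classes.

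For complex III, mt-Cytb had 3457 CPM in BKO Tfr cells, against 3130 and 3129 CPM in WT, and 4016 CPM in BKO Tfh cells, against 3365 and 3344 CPM, with the WT runs equal to within 0.01 log2 units. For complex IV, mt-Co1 had 5165 CPM in BKO Tfr cells, against 5136 and 5867 CPM, and 5491 CPM in BKO Tfh cells, against 5046 and 5876 CPM. mt-Co2 had 5306 CPM in BKO Tfr cells, against 5612 and 5438 CPM, and 6031 CPM in BKO Tfh cells, against 5953 and 5711 CPM. mt-Co3 had 6527 CPM in BKO Tfr cells, against 7260 and 6929 CPM, and 7546 CPM in BKO Tfh cells, against 7678 and 7274 CPM. mt-Co2 and mt-Co3 were thus below both runs in Tfr but not in Tfh cells, with log2 ratios to the mean of the runs of -0.06 and -0.12 in Tfr cells, where TMM scaling shifts such ratios by 0.12. mt-Cytb, by contrast, was above both runs in both classes.

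For complex V, mt-Atp6 had 7886 CPM in BKO Tfr cells, against 7994 and 7634 CPM in WT, and 9375 CPM in BKO Tfh cells, against 8656 and 8241 CPM. mt-Atp8 had 178 CPM in BKO Tfr cells, against 133 and 183 CPM, and 206 CPM in BKO Tfh cells, against 137 and 194 CPM. mt-Atp8 had the largest gap between the WT runs of the mitochondrial genes, 0.46 in Tfr and 0.50 in Tfh cells. Both genes are read from 1 transcript and share bases, so UMIs of the stretch below cannot be assigned to either by sequence alone. The stretch is printed with the start codon of mt-Atp6 in capitals, from GENCODE vM21 transcripts on GRCm38.
mt-Atp8 and mt-Atp6 overlap (chrM:7927-7969, plus strand): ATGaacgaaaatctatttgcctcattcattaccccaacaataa

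The overlap has 43 of the 204 bases of mt-Atp8. Other overlaps are shorter, with 7 bases between mt-Nd4l and mt-Nd4, 1 between mt-Atp6 and mt-Co3, and 14 between mt-Nd5 and mt-Nd6 on opposite strands. Genes at least 0.2 log2 units higher in WT run 2 made up 4 of the 13 mitochondrial genes in Tfr and 5 in Tfh cells, where 2.25% and 1.59% of all genes were. The 4 shortest mitochondrial genes, mt-Atp8, mt-Nd3, mt-Nd4l and mt-Nd6, were among them in both classes. In the WT cells that both runs put in the same class these 4 lay between 0.20 and 0.48. How the runs came to differ there was not tested.

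**Figure D3:**
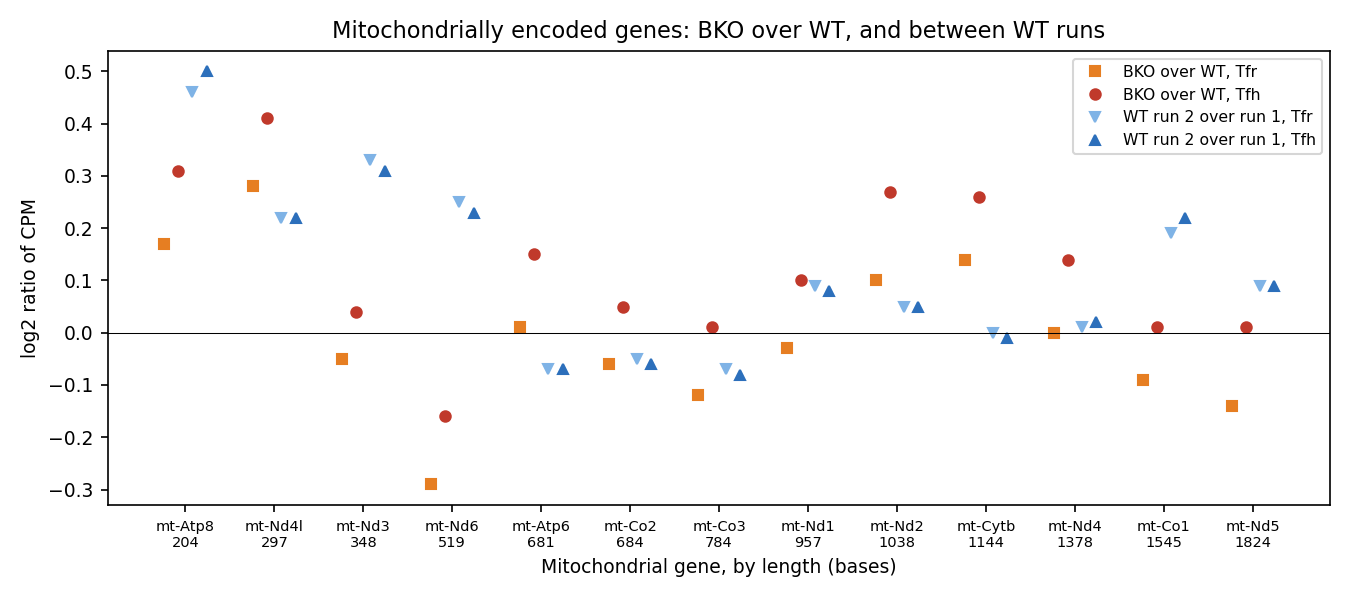
Log2 ratios (y axis) of the 13 mitochondrial genes, ordered by length in bases (x axis), for BKO over the mean of the WT runs and for WT run 2 over WT run 1 in Tfr and Tfh cells. The 4 shortest genes lie between 0.22 and 0.50 in the comparison of the WT runs.

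Cell by cell, the nuclear share was higher in BKO at each quartile, while the mitochondrial share of Tfr cells was spread a little wider in BKO. The median cell gave 2.01% of its UMIs to nuclear members in BKO Tfr cells, against 1.67% and 1.63% in WT, with quartiles of 1.67% to 2.39%, 1.39% to 1.99% and 1.39% to 1.96%. In Tfh cells the medians were 1.89% in BKO, against 1.61% and 1.58%, with quartiles of 1.57% to 2.27%, 1.34% to 1.92% and 1.33% to 1.87%. The mitochondrial share had medians of 3.52% in BKO Tfr cells, against 3.61% and 3.63%, and 4.21% in BKO Tfh cells, against 3.86% and 3.88%. In Tfr cells its 5th percentile was 2.01% in BKO, against 2.15% and 2.22%, and its 95th percentile 5.90% in BKO, against 5.74% and 5.72%. The ranges overlapped widely between genotypes. Across cells of 1 library and class, the mitochondrial share was lower in cells with more UMIs (Spearman -0.35 to -0.19) and the nuclear share slightly higher (0.08 to 0.15), as a description, since both are parts of the same UMI total. The shares of a cell were only weakly related to each other (-0.13 to -0.03).

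**Figure D4:**
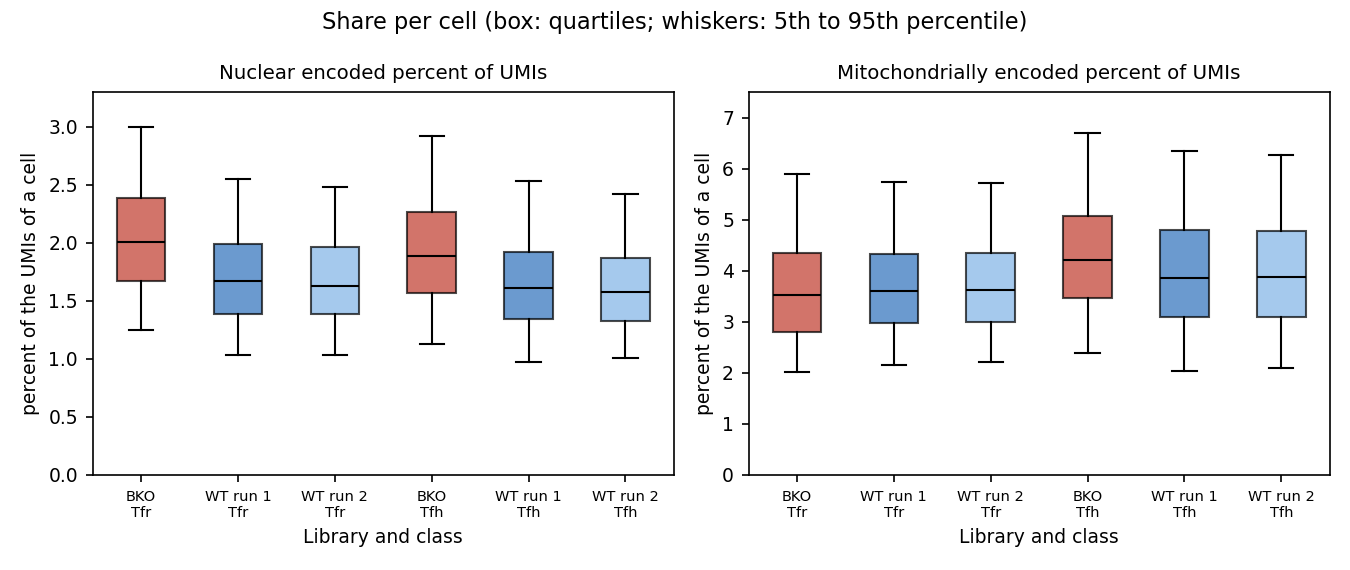
Percent of the UMIs of a cell (y axis) in nuclear-encoded and mitochondrially encoded members, by library and class (x axis). Boxes are quartiles with the median and whiskers run between the 5th and 95th percentiles. The BKO boxes for nuclear members are shifted upward from both WT boxes and overlap them in part (BKO medians 2.01% in Tfr and 1.89% in Tfh). Those for mitochondrial genes overlap almost fully in Tfr cells.

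The authors' subclusters were compared where each library had at least 100 cells, which left subclusters 0 to 4 of each class. In all 10 of them BKO had a nuclear share above both WT runs. In Tfr subclusters 0 to 4 the log2 ratios were 0.14, 0.23, 0.18, 0.14 and 0.17, and in Tfh subclusters 0 to 4 they were 0.10, 0.19, 0.05, 0.23 and 0.22. In Tfh subcluster 2 the BKO interval (2.22% to 2.23%) overlapped that of WT run 1 (2.17% to 2.23%). Complex I there had 0.713% in BKO, against 0.723% and 0.675%, and complex III 0.218%, against 0.222% and 0.213%. Complexes II, IV and V were above both runs there. In Tfr cells the nuclear share was highest in subcluster 2, at 2.40% in BKO, against 2.15% and 2.09% in WT, and lowest in subcluster 0, at 1.61%, against 1.48% and 1.46%. In Tfh cells subcluster 2 was also highest of the 5, at 2.22% in BKO, against 2.20% and 2.11%, and subcluster 0 lowest, at 1.65%, against 1.54% and 1.53%. The spread between subclusters of 1 library was thus wider than the difference between genotypes within each of them. No member was among the 10 leading genes of any subcluster.

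Members were also counted within each subcluster. BKO lay above both runs for 59, 65, 60, 68 and 50 of 82 nuclear members in Tfr subclusters 0 to 4, where 35.9%, 33.3%, 29.0%, 32.9% and 33.1% of all genes did. In Tfh subclusters 0 to 4 the counts were 59 of 82, 71 of 82, 38 of 83, 75 of 82 and 68 of 81, where 37.4%, 34.3%, 26.9%, 30.5% and 30% of all genes did. By the rule of size 1 member was called in each of 2 subclusters, Ndufaf3 higher in Tfr subcluster 2 and Ndufb6, a membrane-arm subunit of complex I, higher in Tfh subcluster 4. Of all genes 1.30% and 0.586% were called higher there.

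The mitochondrial share behaved differently by subcluster. In Tfr cells it was higher in BKO in subclusters 0, 2, 3 and 4, with log2 ratios of 0.07, 0.04, 0.05 and 0.03. In Tfr subcluster 1 it was lower, at 2.99% in BKO, against 3.31% and 3.29% in WT, a ratio of -0.14, with 8 of 13 genes below both runs and 1 above, where 51.2% and 33.3% of all genes were. That subcluster held 742 of the 2044 BKO Tfr cells, against 229 of 1416 and 248 of 1449 in WT. With the 5 subclusters given equal weight, the mitochondrial ratio of Tfr cells was 0.02, against -0.03 in the class taken whole. In Tfh cells it was higher in BKO in subclusters 0 to 3, with 0.06, 0.05, 0.03 and 0.05, and lower in subcluster 4, at 3.69%, against 3.84% and 3.84%. Equal weight gave 0.03 in Tfh cells, against 0.10 in the class taken whole, so the mitochondrial values of both classes depended on how many cells of each subcluster a library held.

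One of the smaller subclusters stood apart in its nuclear share. Tfh subcluster 8, with 46 BKO cells and 64 and 53 WT cells, had the highest nuclear share of all, at 3.09% in BKO, against 2.47% and 2.30%. Its mitochondrial share was low, at 2.96% in BKO, against 3.06% and 3.19%. Mitochondrial UMIs per nuclear-member UMI were 0.959 there in BKO, against 1.24 and 1.38 in WT, and in the 10 larger subclusters they lay between 1.36 and 2.70. Its cells were also deep, with a median of 12948 UMIs in BKO, against 10572 and 16448. A low mitochondrial share was not particular to Tfh subcluster 8. Tfh subcluster 5 had 2.84% and 2.86% in WT runs 1 and 2 and 3.25% in BKO. It held 11 BKO cells, against 359 and 363 WT cells. Tfr subcluster 6 had 2.74% and 2.88% in WT, but it had 0 BKO cells and was not compared.

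**Figure D5:**
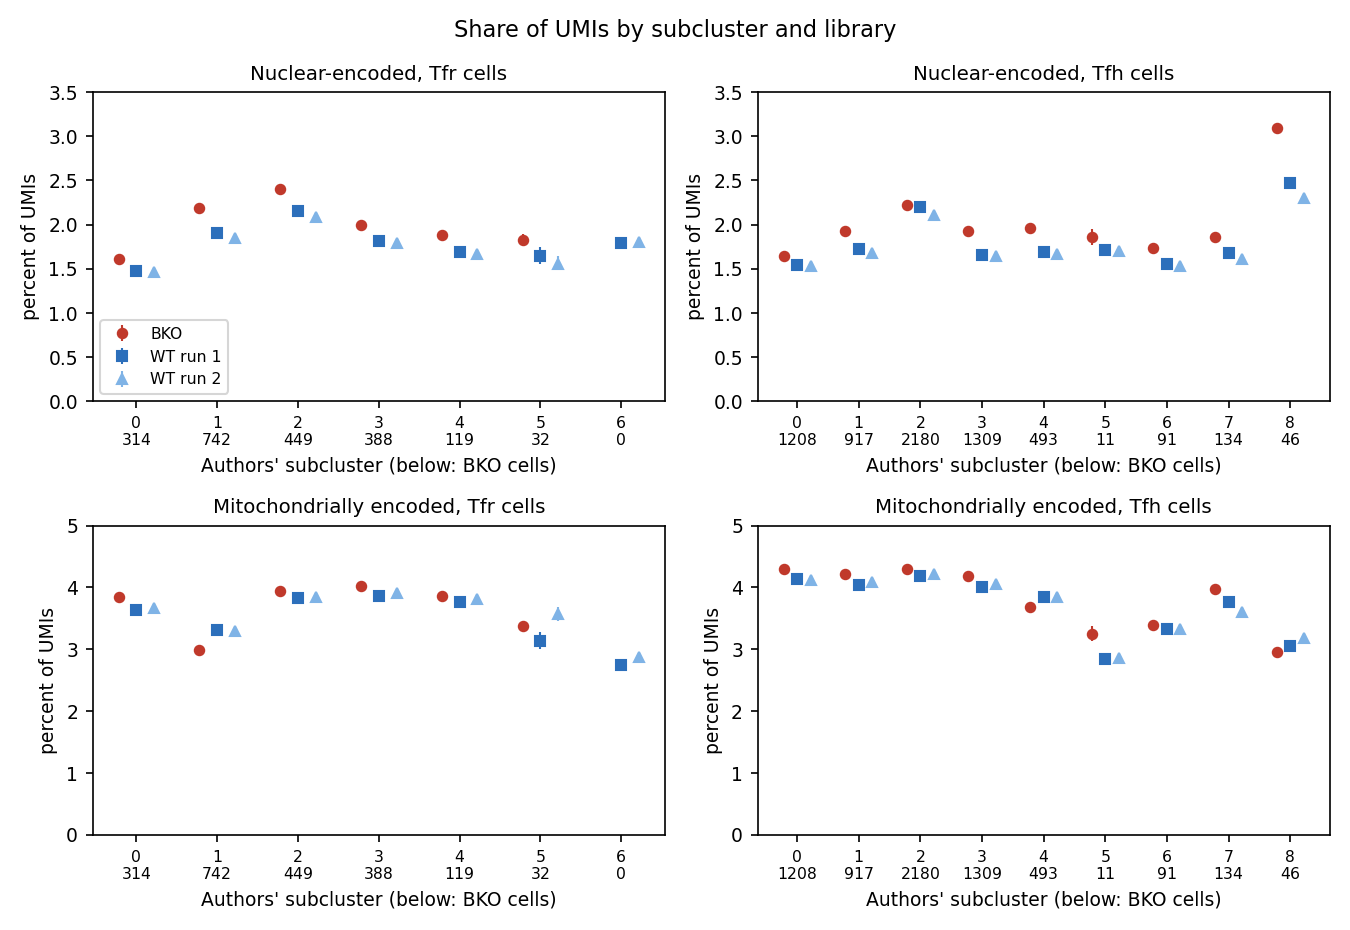
Percent of UMIs (y axis) in nuclear-encoded and mitochondrially encoded members for each of the authors' subclusters (x axis, with the number of BKO cells) and library, with exact intervals for counting error. BKO is above both WT runs for nuclear members in every subcluster with cells, and below them for mitochondrial genes in Tfr subcluster 1 (2.99%, against 3.31% and 3.29%). In Tfh subcluster 2 the nuclear intervals of BKO and WT run 1 overlap.

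Tfr and Tfh cells were then compared within each library. The nuclear sum differed little, with log2 ratios of Tfr over Tfh of 0.07 in BKO and 0.03 and 0.04 in WT runs 1 and 2. Tfr cells were 1.5 times beyond Tfh cells in all 3 samples for 0 members, against 2.35% of 6552 genes higher and 1.86% lower. Of the 82 nuclear members, 41 were higher in Tfr cells in all 3 samples and 8 lower, where 34.1% and 33.7% of all genes were. Complex III was higher for 7 of its 8 members. Cox7b, of complex IV, had ratios of 0.18 in BKO and 0.16 and 0.17 in WT, and Sdhd 0.18 in BKO and 0.29 and 0.27 in WT. Ndufaf4 was lower in Tfr cells, at -0.36 in BKO and -0.39 and -0.27 in WT, and so was Atp5h, at -0.16 in BKO and -0.16 and -0.17 in WT.

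The mitochondrial genes ran the other way, with a lower sum in Tfr cells in each library. The log2 ratio of Tfr over Tfh was -0.21 in BKO and -0.09 and -0.08 in WT runs 1 and 2. Of the 13 genes, 10 were lower in Tfr cells in all 3 samples and 0 higher, where 33.7% and 34.1% of all genes were. mt-Nd2 had -0.37 in BKO and -0.19 and -0.20 in WT, and mt-Nd1 had -0.31 in BKO and -0.18 and -0.17 in WT. The 2 WT values come from the same cells, so these are 2 libraries and the larger gap in BKO was not tested.

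Genes that work beside the chain were taken as lists. None of the members of the carrier, assembly, regulator, tricarboxylic acid cycle and mitochondrial ribosome lists was called by the rule of size in either class. Carriers and ATP export had a median ratio of 0.18 in Tfr and 0.14 in Tfh cells, above 0 for 10 and 9 of 10. Of all genes measured, 2512 of 6539 in Tfr and 2407 of 6559 in Tfh cells were above 0. With the trend over intron length taken off, the carrier medians were 0.06 and 0.01, above 0 for 6 and 5 of 10. On that scale 3265 and 3270 of all genes were above 0. Among the carriers Slc25a5, which exchanges ADP for ATP across the inner membrane, had 289 CPM in BKO Tfr cells, against 232 and 235 CPM in WT. Slc25a3, the phosphate carrier, had 320 CPM in BKO Tfr cells, against 264 and 264 CPM. Ucp2, an uncoupling protein relative common in immune cells, had 483 CPM, against 418 and 440 CPM. The mitochondrial ribosome, which translates the 13 mitochondrial genes, had medians of 0.17 in Tfr and 0.15 in Tfh cells, above 0 for 62 of 69 and 68 of 71. With the trend taken off they were 0.05 and 0.06, above 0 for 45 of 69 and 50 of 71, beside 0.15 and 0.13 for the nuclear members. Before the trend was taken off, its members Mrpl52, Mrpl33 and Mrps21 had ratios of 0.27, 0.23 and 0.33 in Tfr and 0.36, 0.04 and 0.31 in Tfh cells.

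The medians of the other lists were lower before the trend over intron length was taken off. The 25 measured assembly factors outside the naming rule had medians of 0.09 in Tfr and 0.10 in Tfh cells. Among them Cox17, the copper chaperone of complex IV, had 269 CPM in BKO Tfr cells, against 174 and 192 CPM in WT, while Cox16, another assembly factor of complex IV, had 204 CPM, against 238 and 240 CPM. Cox14, of the same kind, had ratios of 0.26 in Tfr and 0.19 in Tfh cells. The tricarboxylic acid cycle had medians of 0.02 in Tfr and 0.06 in Tfh cells, with Mdh2 at 0.28 and 0.20, Suclg1 at 0.01 and 0.10 and Ogdh at -0.10 and -0.14, in Tfr and Tfh cells in turn. Genes of mitochondrial DNA upkeep and its regulators had medians of -0.10 in Tfr and -0.08 in Tfh cells. With the trend taken off, these regulators had medians of 0.00 in Tfr and -0.01 in Tfh cells. The assembly factors then had 0.04 and 0.03. The tricarboxylic acid cycle had 0.09 and 0.09, above 0 for 10 and 12 of 13 and higher than the carriers and the mitochondrial ribosome. Nrf1, which encodes the factor of the motif printed above, had 85.0 CPM in BKO Tfr cells, against 127 and 124 CPM, and 91.0 CPM in BKO Tfh cells, against 119 and 120 CPM. Yy1, another regulator, had ratios of -0.25 and -0.21 and Ssbp1, which coats single-stranded mitochondrial DNA, 0.14 and 0.16. The values of Nrf1, Yy1 and Ssbp1 are those before the trend over intron length was taken off.

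Cytosolic ribosomal genes were set beside the members because they are also short and abundant. Their share of UMIs varied between subclusters, at 15.6% in BKO cells of Tfh subcluster 0 and 23.7% in those of Tfh subcluster 2. Genes starting with Rpl or Rps had a median ratio of 0.13 in Tfr and 0.21 in Tfh cells, beside 0.25 and 0.22 for the nuclear members. Their share of UMIs was 19.3% in BKO Tfr cells, against 17.0% and 17.6% in WT, and 19.9% in BKO Tfh cells, against 16.6% and 17.2%. With the trend over intron length taken off, their medians were -0.04 in Tfr and 0.04 in Tfh cells, beside 0.15 and 0.13 for the nuclear members. Before the trend was taken off, Rps24, Rps29 and Rps27 had ratios of 0.17, 0.40 and 0.33 in Tfr and 0.29, 0.53 and 0.44 in Tfh cells. Rps27rt was called higher in both classes. Rps6ka5 was called lower in both and Rps6ka3 in Tfr cells, and both encode kinases that share only the first letters of the name.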

How the data were processed

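The authors deposited matrices of raw UMI counts for all genes, and tables of Tfr and Tfh cells with subclusters at resolution 0.3, per the file headers. The BKO matrix held 1275404 barcodes, and those of WT runs 1 and 2 held 5554 and 5721. Reads went through Cell Ranger with mm10, per the submitters' processing notes, in version 7.0.1 for WT and 4 for BKO, per the file headers. No source used here says whether intron reads were counted. The deposited tables also hold the percent of mitochondrial UMIs and hold cells under 10% of it and under 4000 genes. No source used here gives a treatment of doublets, and none was applied.

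Counts of cells in the tables were summed per library, class and subcluster and divided by the class total. The log2 ratios add 0.5 CPM and set BKO against the mean of the WT runs. Intervals are exact (Poisson or Clopper-Pearson, 95%). Planned comparisons carry no test because each genotype has 1 library. Cells were matched to runs by barcode suffix. Sums over WT cells of the same class in both runs were added after the data were seen. Intron lengths came from GENCODE vM21 (32158 of 32285 features), and 30 bins were used for the trend. Calculations used Python 3.11.15, pandas 2.3.3 and scipy 1.17.1, with edgeR 4.0.16 for TMM scaling only, and were tested on simulated data. The members, lists and rules were chosen with earlier results of these data known. Genes were named if they were among the 3 of highest CPM or had the highest or lowest ratio of their complex, were mitochondrial, or were isoforms of a fixed set. Of other lists the 3 genes of highest CPM and those called were named. Others (Ndufs4, Ndufb6, Ndufa8, Ndufa11, Ndufaf4, Atp5mpl and those of the Tfr over Tfh comparison) were named after their values were seen.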

Additional observations from a re-analysis of the deposited data

Results flagged for a closer look

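The mitochondrial sum differed in direction between the classes, with a log2 ratio of BKO over WT of -0.03 in Tfr cells and 0.10 in Tfh cells, with BKO below both WT runs in Tfr cells and above both in Tfh cells. The difference between the classes was not tested, and the sign in Tfr cells depended on scaling and on the weight of subclusters.

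Barcodes outside the authors' tables with at least 4000 genes (821 in BKO, against 295 and 375 in WT runs 1 and 2) also held a larger nuclear share in BKO, at 2.35% of UMIs, against 2.02% and 1.98%. Their mitochondrial share was 3.17% in BKO, against 3.10% and 3.15%.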

How the results depend on the processing

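The nuclear ratio of BKO over WT stayed above 0 under every alternative, and moved from 0.27 in Tfr and 0.23 in Tfh cells to 0.39 and 0.39 with TMM scaling (edgeR), to 0.32 and 0.30 with the total taken without mitochondrial, ribosomal and member genes, to 0.17 and 0.15 with subclusters given equal weight, and to 0.15 and 0.12 with the trend over intron length taken off. TMM shifted all ratios by 0.12 in Tfr and 0.16 in Tfh cells. In Tfh cells it was 0.24 as a mean over cells and 0.24 in WT cells put in the same class in both runs, an alternative chosen after seeing the data. Leaving out 1 WT run gave 0.26 to 0.29 in Tfr and 0.21 to 0.25 in Tfh cells, and the value within batch 1 is the one without WT run 2 (0.26 and 0.21).

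The mitochondrial ratio of Tfr cells turned from -0.03 to 0.09 with TMM, 0.02 with the other total and 0.02 with equal weight. It was -0.02 as a mean over cells, -0.02 in WT cells of the same class in both runs, -0.06 in cells under 5% mitochondrial UMIs, and -0.03 to -0.02 without 1 WT run. In Tfh cells it was 0.26 with TMM, 0.17 with the other total, 0.03 with equal weight, 0.11 as a mean over cells, 0.08 in cells under 5%, and 0.10 to 0.11 without 1 WT run. The cause of these moves was not tested beyond the alternatives' own construction.

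Members called went from 0 in both classes to 14 in Tfr and 4 in Tfh cells when at least 25% beyond both WT runs sufficed, all higher, where 4.74% and 2.21% of all genes were. Without WT run 2 there were 4 in each class (0 without WT run 1): Atp5k, Ndufa3, Atp5mpl and Atp5md in Tfr, and Ndufa3, Atp5mpl, Atp5md and mt-Atp8 in Tfh cells. Over all genes 1.46% and 0.859% were called higher without WT run 2. With no minimum of CPM there were 2 in Tfr (1 higher, 1 lower) and 4 in Tfh cells (2 higher, 2 lower), all under 20 CPM. The gene called lower in Tfr cells, Cox4i2, had 0 UMIs in BKO and 0 in WT run 1. The Tfr over Tfh ratios kept their direction under the 4 alternatives each. No paired analysis was possible because the groups share 1 replicate number and both WT samples are the same cells. Depth limits the members under 20 CPM.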

Other observations

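Barcodes of the unfiltered BKO matrix with 1 to 50 UMIs, 907649 in all, are mostly RNA outside cells. They gave 2.24% of their UMIs to nuclear members and 4.67% to mitochondrial genes. The WT matrices held only 5554 and 5721 barcodes, and barcodes of this kind were not analysed for WT. RNA outside cells was therefore not compared between genotypes.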
